A study of Mus musculus with 2 samples.

Results

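The genes described here are 9 genes known for megakaryocytes, the large bone marrow and fetal liver cells that shed platelets, and for platelets themselves: Pf4, Ppbp, Gp9, Gp1bb, Gp5, Treml1, Nrgn, Itga2b and Itgb3. They were read through every probe set whose platform annotation names that gene alone, which gave 11 probe sets for 9 genes, out of 45101 probe sets on the array and 18193 genes with such a probe set. RNA came from c-Maf KO (c-Maf-/-) and wild type (c-Maf+/+) embryos of the C57BL/6J strain at embryonic day 15.5, with 1 array for each genotype, and the cells had been sorted from fetal liver as positive for Mac-1 and F4/80, which are antigens of macrophages and not of platelets. c-Maf, which Maf encodes, is a bZIP factor that binds DNA and controls transcription in macrophages. The labels do not say how many embryos went into a sort or which part of Maf is deleted, and both groups were stained and sorted with the same pair of antibodies.

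Megakaryocytes pack platelets with granules that hold the chemokines platelet factor 4 (Pf4) and pro-platelet basic protein (Ppbp). Platelets stop bleeding with a pair of large adhesion receptors: the glycoprotein Ib-IX-V complex, which binds von Willebrand factor, and the integrin alpha-IIb beta-3 (Itga2b and Itgb3), which binds fibrinogen and links platelets into a clot. In the fetus, megakaryocytes arise in the liver beside erythroblasts and macrophages, and GATA and ETS family factors are known regulators of their genes.

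With 1 array per genotype there is no replicate, no test and no error for any gene, and every comparison below describes these 2 arrays. In a sorted population, fewer megakaryocytes or platelets and less RNA per cell cannot be told apart. The whole KO array was also dimmer, with a median signal of 2.98 on the KO array and 4.73 on the wild type array. The ratio of 3′ to 5′ signal, a sign of RNA quality and labelling, differed too: it was 6.05 on the KO array and 13.3 on the wild type array for beta-actin, and 0.90 on the KO array and 1.83 on the wild type array for Gapdh. Its part in the ratios below was not tested. Signals are therefore given as deposited, in arbitrary units, and ratios are given after quantile normalization, which makes both arrays share 1 distribution of signals and is called level-adjusted here. Values under a floor, the median of all values (3.70 as deposited, 3.75 level-adjusted), were raised to it, so a gene under the floor on 1 array has a bound in place of a fold. A log2 ratio is that of KO over wild type throughout. The only yardstick for a ratio is how far probe sets of 1 gene differ on these arrays: the SD was 0.64 log2 units for bright probe sets, from 2837 pairs, and 0.67 for dim ones, from 1922 pairs. It leaves out any variation between animals, sorts and arrays.

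Maf itself was checked first. Its brightest probe set had a deposited signal of 0.219 on the KO array and 47.6 on the wild type array, which is at least 8.51-fold lower in KO after level adjustment. Of the 6 Maf probe sets, 2 were at least 2-fold lower in KO after level adjustment. Of the others, 1 was under the floor on both arrays and 3 had log2 ratios from -0.21 to 0.07, of which 2 are bounds.

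The 250 bases before the annotated start of 3 of the genes are shown because their signals behaved differently: Gp9 was under the signal floor on the KO array, Itga2b kept nearly the same deposited signal on both, and Pf4 moved with the array as a whole. The sequences are from RefSeq on GRCm38.p6, written 5′ to 3′ on the strand of the gene, at chr6:87777820-87778069 on the plus strand for Gp9, chr11:102469884-102470133 on the minus strand for Itga2b and chr5:90772185-90772434 on the plus strand for Pf4. Capitals mark matches, on either strand, to 4 kinds of motif: GATA (the letters AGATAA, its variant AGATAG, the form TGATAA and the form TGATAG), ETS (AGGAAG and its variant CGGAAG), the half-site of Maf proteins (TGCTGA) and RUNX (TGTGGT and its variant TGCGGT).
Gp9: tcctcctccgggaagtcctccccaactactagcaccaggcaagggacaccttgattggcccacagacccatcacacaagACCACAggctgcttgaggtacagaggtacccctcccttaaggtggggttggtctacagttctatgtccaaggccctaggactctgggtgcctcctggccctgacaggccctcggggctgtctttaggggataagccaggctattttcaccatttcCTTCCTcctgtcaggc
Itga2b: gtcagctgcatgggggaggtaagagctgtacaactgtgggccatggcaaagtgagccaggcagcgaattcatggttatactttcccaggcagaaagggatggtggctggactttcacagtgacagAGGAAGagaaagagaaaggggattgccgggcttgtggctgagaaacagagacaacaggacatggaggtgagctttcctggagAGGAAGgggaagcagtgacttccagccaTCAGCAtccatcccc
Pf4: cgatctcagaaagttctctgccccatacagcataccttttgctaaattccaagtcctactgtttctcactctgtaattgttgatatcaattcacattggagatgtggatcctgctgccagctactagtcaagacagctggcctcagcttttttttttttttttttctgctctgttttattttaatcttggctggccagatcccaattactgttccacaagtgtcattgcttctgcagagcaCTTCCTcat

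Gp9 held an ETS match that began 16 bases before the start and a RUNX match 171 bases before it. Itga2b held ETS matches 125 and 43 bases before the start, and the Maf half-site, read on the opposite strand as TCAGCA, 15 bases before it. Pf4 held an ETS match 9 bases before the start. Over the 8 members with a sequence in the table, which lacks Itgb3, 5 held an ETS match (62.5%, against 39.2% of all 32851 promoter windows of the same length), 2 held a GATA match (25%, against 26.5%), 1 a Maf half-site (12.5%, against 16.1%) and 1 a RUNX match (12.5%, against 18.6%). The GATA matches were in Gp1bb, 22 bases before the start, and in Gp5, which had 3. No match overlapped another. These letters describe the sequence and say nothing of whether a factor binds there.

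All 9 genes, and all 11 of their probe sets, had a lower deposited signal on the KO array than on the wild type array. The KO array was dimmer as a whole, with a median deposited log2 ratio of -0.79 over the 13479 genes measured as deposited. The share of all genes with a lower deposited signal was not counted, so this is no result about the 9 genes. After level adjustment, 4 of the 9 log2 ratios were below 0 and 5 above 0, with a median of 0.03, beside 0.01 over the 13290 genes measured on at least 1 array. Of the 9 genes, 2 were at least 2-fold lower (Gp9 and Nrgn), where 9.05% of all measured genes were, and 0 passed 2-fold upwards, where 8.34% did. As deposited, 4 of 9 were at least 2-fold lower, where 39.8% of 13479 genes were, and again 0 passed 2-fold upwards, where 1.19% did. Over only 9 genes, these shares are no result about platelet genes as a group. Both genes counted as lower after level adjustment were under the floor on the KO array, so they were measured only because of their wild type signal, and their folds are bounds.

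**Figure D1:**
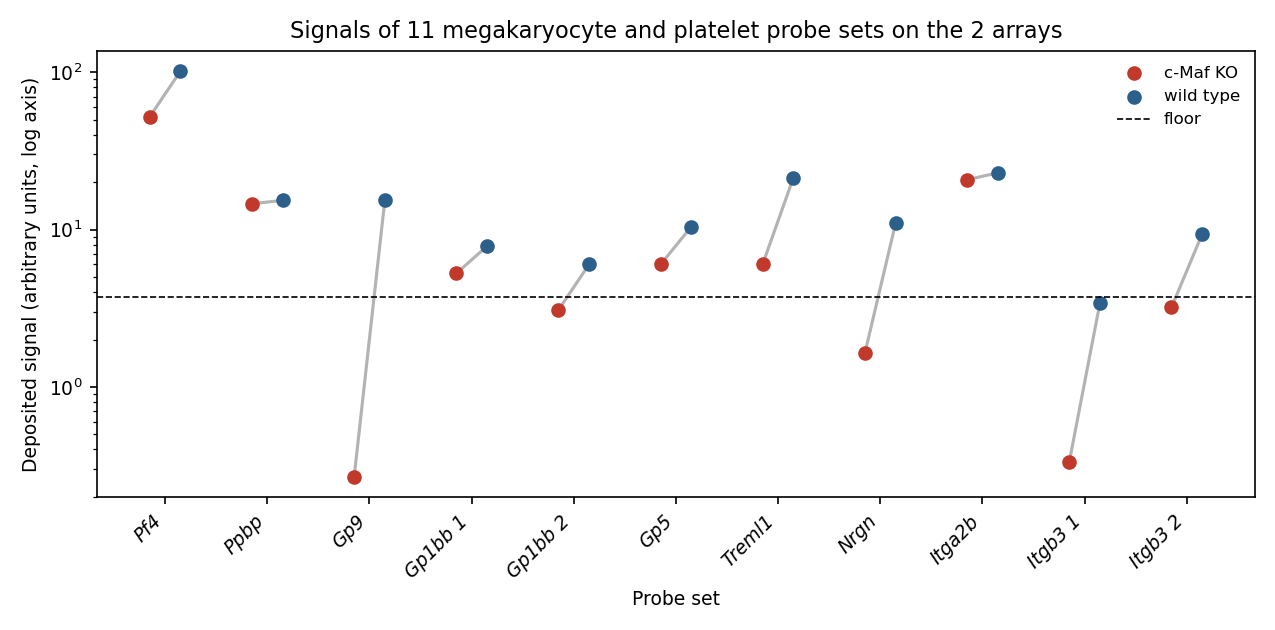
Deposited signal (log axis, arbitrary units) of each of the 11 probe sets on the c-Maf KO array (red) and the wild type array (blue), joined by a line, with the floor of 3.70 dashed. Every KO point lies below its wild type point, from a nearly level pair for Ppbp (14.6 and 15.3) to a steep one for Gp9 (0.268 and 15.3).

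Among the granule chemokines, Pf4 had a deposited signal of 52.1 on the KO array and 102 on the wild type array. It was the only one of the 9 genes more than 10 times above the floor, 14.1 times on the KO array and 27.5 times on the wild type array. Its level-adjusted log2 ratio was 0.20, and its deposited one was -0.96, close to the -0.93 of the median gene that reached the floor on each array. Pf4 thus kept its place on each array, at the 96.3rd percentile of KO signals and the 95.8th of wild type signals. Pf4 transcripts are also known from some tissue macrophages, so this gene alone does not mark megakaryocytes.

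Ppbp lies next to Pf4 on chromosome 5, in a cluster of CXC chemokine genes, and yields a chemokine that attracts neutrophils. Its deposited signal was 14.6 on the KO array and 15.3 on the wild type array. That near-equality on a dimmer array corresponds to a level-adjusted log2 ratio of 0.96, short of 2-fold, and its sign turned with values as deposited (-0.07) and with scaling to the hybridisation controls (-0.36). Pf4 lay 0.75 log2 units below Ppbp in ratio, less than the 0.91 by which bright probe sets of 1 gene typically differ (root mean square).

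Of the measured genes of the Ib-IX-V complex, Gp9 was under the floor on the KO array, and Gp1bb and Gp5 lay near the middle of all genes after level adjustment. Gp9 encodes glycoprotein IX, a small leucine-rich subunit needed for the complex to reach the surface. Its deposited signal was 0.268 on the KO array and 15.3 on the wild type array. It was at least 2.93-fold lower in KO after level adjustment and at least 4.14-fold lower as deposited. On the KO array this probe set stood at the 10.1th percentile of all probe sets, and on the wild type array at the 78.4th. The log2 ratio of Gp9 with its KO value raised to the floor was -1.55, lower than those of all but 2.29% of measured probe sets. Among measured probe sets of like mean signal, 6.86% had a lower ratio. Both ranks are those of a bound, in a gene measured only through its wild type signal.

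Gp1bb encodes the beta chain of glycoprotein Ib, which is joined to the ligand-binding alpha chain. Its brighter probe set had 5.26 on the KO array and 7.83 on the wild type array, and the other had 3.08 on the KO array and 6.02 on the wild type array. The level-adjusted log2 ratios were 0.20 and -0.28, so both were within 2-fold and they differed in sign. A further probe set, annotated to both Septin5 and Gp1bb and so outside the 11, had 12.9 on the KO array and 31.6 on the wild type array, a level-adjusted log2 ratio of -0.21.

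Gp5, the subunit of the complex that thrombin cleaves, had a deposited signal of 6.00 on the KO array and 10.4 on the wild type array. Its level-adjusted log2 ratio was 0.03, at the middle of all measured probe sets. Gp9 was measured only through its wild type signal, so its distance from Gp1bb and Gp5 is set in part by the floor and is not read as a difference between subunits. All 3 genes were at most 4.14 times the floor on either array. The gene of the alpha chain, Gp1ba, was not analysed here.

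The chains of the fibrinogen receptor had level-adjusted ratios of opposite sign on these arrays, with Itgb3 close to the floor on the KO array. Itga2b encodes integrin alpha-IIb, or CD41, an early marker of the megakaryocyte lineage that is also present on some fetal blood progenitors. Its deposited signal was 20.7 on the KO array and 22.9 on the wild type array. The level-adjusted log2 ratio was 0.95, a value that only 9.75% of measured probe sets reached or passed, but its sign turned as deposited (-0.15) and with the hybridisation controls (-0.44).

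Itgb3 encodes integrin beta-3, or CD61, which pairs with alpha-IIb in platelets and with alpha-V in other cells. Its brighter probe set had 3.20 on the KO array and 9.34 on the wild type array, and the other had 0.335 on the KO array and 3.42 on the wild type array. The first gave a level-adjusted log2 ratio of -0.80, within 2-fold, and at least 2.52-fold lower as deposited, and the second was under the floor on both arrays. Itgb3 lay 1.76 log2 units below Itga2b, with a range of -1.86 to -1.06 under the other settings. As deposited the KO signal of Itgb3 was under the floor, and after level adjustment it was 4.05, just above it. Part of that range is thus set by the floor, and the distance is not read as a difference between the chains. Itgb3 was dim, at 0.865 times the floor on the KO array and 2.52 times on the wild type array.

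Treml1 encodes TLT-1, a receptor held in platelet alpha-granules and moved to the surface on activation. Its deposited signal was 6.06 on the KO array and 21.4 on the wild type array. It was 3.53-fold lower in KO as deposited and 1.85-fold lower after level adjustment, so it passed 2-fold on the first scale only. Its log2 ratio stayed below 0 in all 11 other settings, from -2.11 to -0.66.

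Nrgn encodes neurogranin, a calmodulin-binding protein of neurons whose transcript is also abundant in platelets. Its deposited signal was 1.65 on the KO array, under the floor, and 10.99 on the wild type array. It was at least 2.19-fold lower after level adjustment, at the edge of the threshold. With the floor at the 65th percentile the log2 ratio was -0.42, and Nrgn was then not at least 2-fold lower. With ratios centred on the median gene it was -0.73, which also ended the call. Gp9 lost the call under the higher floor only, at -0.84, because a higher floor shortens every bound.

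**Figure D2:**
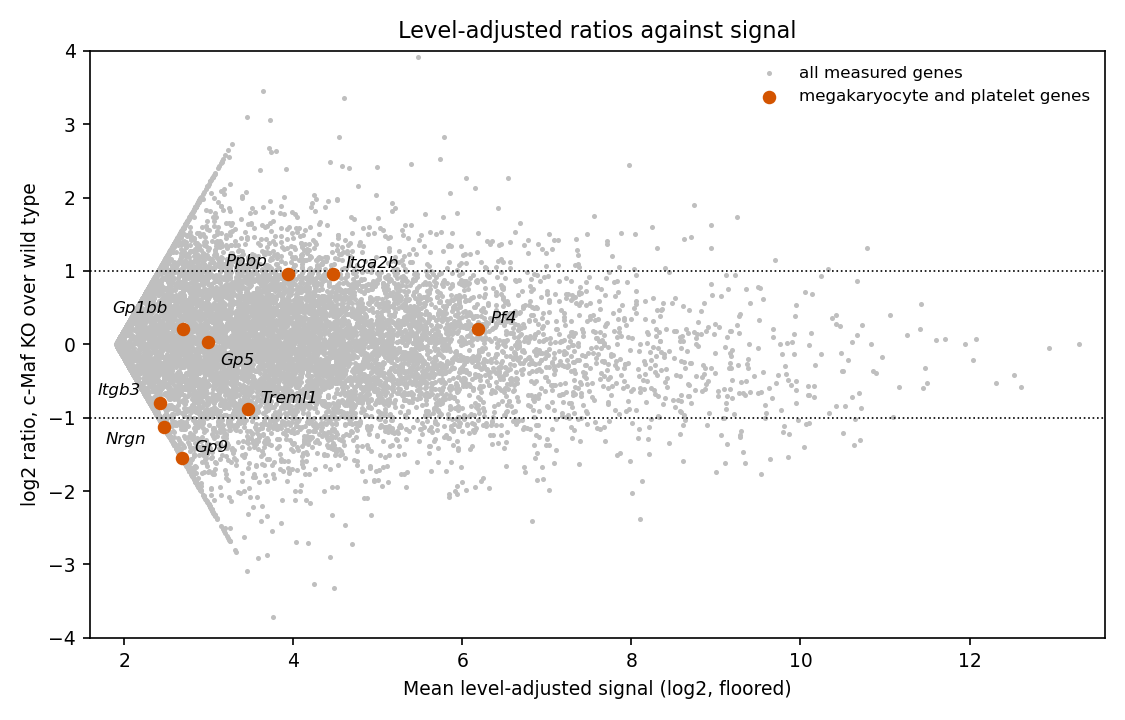
Level-adjusted log2 ratio of c-Maf KO over wild type (vertical axis) against mean level-adjusted signal (log2, horizontal axis), 1 point per measured gene, the 9 genes in orange; dotted lines mark 2-fold. Pf4 is the brightest of the 9 genes. Itga2b and Ppbp lie near the upper line at 0.95 and 0.96, and Gp9 (-1.55) and Nrgn (-1.13) on the edge formed by the floor, where ratios are bounds.

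The scaling set the sign of 5 of the 9 ratios. Pf4, Ppbp, Gp1bb, Gp5 and Itga2b had ratios on both sides of 0 across the settings, whereas those of Gp9, Treml1, Nrgn and Itgb3 were below 0 in all 11 other settings. The KO signals of Gp9 and Nrgn, and that of Itgb3 as deposited, were under the floor and were raised to it. That step largely fixes the sign of their ratios, so its constancy is not read as a trait of these genes. Because all 9 genes were read on the same 2 arrays, the settings repeat 1 measurement and do not add independent evidence.

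**Figure D3:**
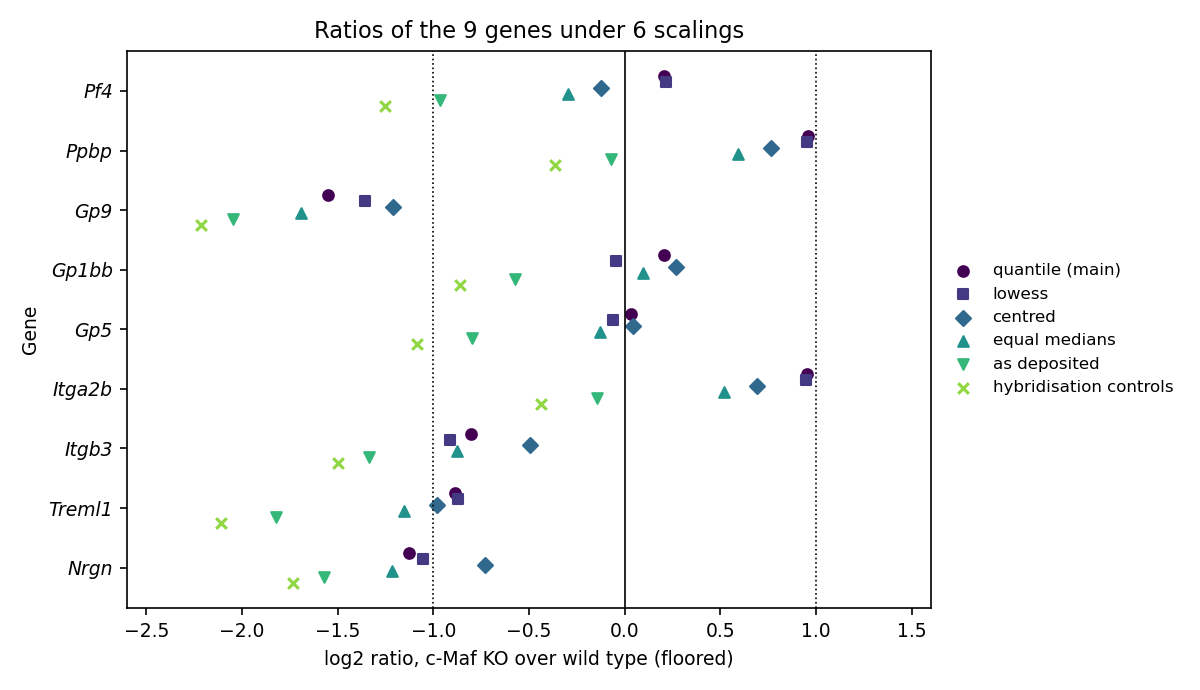
Log2 ratio of c-Maf KO over wild type (horizontal axis) for each of the 9 genes (rows) under 6 ways of bringing the arrays to a common level (symbols); dotted lines mark 2-fold. Gp9, Itgb3, Treml1 and Nrgn lie left of 0 under each scaling, while Ppbp and Itga2b lie right of 0 under 4 and left of it under 2. The KO values of Gp9 and Nrgn, and that of Itgb3 as deposited, were raised to the floor, which shortens those ratios and makes them bounds. Those genes were measured there only through their wild type signal.

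A wider set of 77 genes of megakaryocytes and platelets, in 4 lists by role, was read in the same way. Of these, 70 had a probe set naming them alone and 62 were measured. After level adjustment 54 lay within 2-fold, 2 were lower by 2-fold or more and 6 were higher by as much, with a median log2 ratio of 0.00. Of all measured genes 9.05% were lower and 8.34% higher by that measure, so these counts are no result about the lists. As deposited the median was -0.92, beside -0.79 over all measured genes, with 29 of 63 at least 2-fold lower, where 39.8% of all genes were, and 0 higher. Each gene named from these lists or from the cell type lists below with a level-adjusted ratio above 0 and within 2-fold had a deposited ratio below 0, so its sign rests on the scaling. Many of these genes are also active in macrophages, endothelium or erythroid cells, so the lists do not mark megakaryocytes alone.

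In the list of granule cargo and granule formation, 1 of 14 measured genes was at least 2-fold lower and 2 were higher. The lower one was Nbeal2, needed to form alpha-granules, with 7.05 on the KO array and 34.8 on the wild type array (level-adjusted log2 ratio -1.29), although its other probe set was at 0.60. F13a1, the coagulation factor XIII A chain, which monocytes and macrophages also make, had 237 on the KO array and 916 on the wild type array (-0.94). Coagulation factor gene F5 was at -0.43, while the adhesive protein gene Thbs1 was at 0.75 and Tgfb1 at 0.73; a second Tgfb1 probe set was at -0.05. Vwf, the ligand of the Ib-IX-V complex and also an endothelial product, had 7.16 on the KO array and 2.24 on the wild type array, under the floor there and at least 2.62-fold higher in KO. Pdgfa, named after its value was seen, was at least 2.29-fold higher in KO, with 6.36 on the KO array and 0.610 on the wild type array.

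Among receptors, 0 of 12 measured genes were at least 2-fold lower and 1 was higher, with a median log2 ratio of 0.46 that was -0.39 as deposited. The higher one was P2ry12, the ADP receptor of platelets, which lay on the 2-fold threshold and was named after its value was seen. The collagen receptor gene Gp6 had 3.22 on the KO array and 7.49 on the wild type array (-0.50). Clec1b, the podoplanin receptor CLEC-2, had 15.6 on the KO array and 20.2 on the wild type array (0.69). The laminin receptor chain gene Itga6 was at -0.21, but its other measured probe set was at -1.999, beyond 2-fold. With the mean over the probe sets of each gene, 1 receptor gene was at least 2-fold lower. The thrombin receptor gene F2rl3, the thromboxane receptor gene Tbxa2r, P2ry1 and Cd226 were under the floor on both arrays.

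Among genes of signalling and the cytoskeleton, 1 of 19 was at least 2-fold lower and 2 were higher. Tubb1, the tubulin of platelets, had 11.2 on the KO array and 14.1 on the wild type array, a level-adjusted log2 ratio of 0.66. The higher genes were Gng11, a G-protein gamma subunit, with 26.9 on the KO array and 22.6 on the wild type array (1.36), and the tropomyosin gene Tpm4 with 92.4 on the KO array and 81.8 on the wild type array (1.35). The lower gene, named after its value was seen, was Tuba8, under the floor on the KO array and at least 2.10-fold lower. Rap1b (0.67) and Tln1 (0.65), both of the route that activates alpha-IIb beta-3, and Gnaq (-0.78) were within 2-fold. Each had at least 1 probe set of the opposite sign, and another Rap1b probe set was at 1.22, beyond 2-fold.

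Among transcription factors, 0 of 17 were at least 2-fold lower and 1 was higher, with a median log2 ratio of -0.19. Gata1, shared by megakaryocytes and erythroid cells, had 30.1 on the KO array and 56.9 on the wild type array (0.25), and Fli1, an ETS factor, had 23.3 on the KO array and 43.6 on the wild type array (0.24). Nfe2, a factor of platelet release, was at -0.55. Runx1 (1.99-fold lower), Gata2 (-0.84) and Mef2c (-0.84) were just within 2-fold, and the 6 Runx1 probe sets ran from -1.72 to 1.08. Another Mef2c probe set was at -1.02, beyond 2-fold. Zfpm1, the partner of GATA-1, was at 1.09, and its second probe set at -0.62.

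Other cell types in the sort were read from marker lists on the same arrays. In the macrophage list 13 of 16 genes reached the floor on each array, and the level-adjusted median was 0.16 (-0.55 as deposited), with Csf1r at 248 on the KO array and 625 on the wild type array and Cd163 under the floor on both. Of its 15 measured genes 4 were at least 2-fold higher and 0 lower, where 8.34% and 9.05% of all measured genes were. Named after their values were seen, these 4 were C1qa (1.97), Cd68 (1.43), C1qc (1.36) and Fcgr1 (1.21). C1qb had 102 on the KO array and 124 on the wild type array (0.88), and its probe sets ran from 0.79 to 2.32. Over 1 probe set per gene, the deposited signals of the 9 platelet genes summed to 110 on the KO array and 215 on the wild type array, a ratio of 0.51, beside 0.49 for all genes. The ratio of summed signals was 0.53 for macrophage, 0.64 for erythroid, 0.58 for granulocyte, 0.67 for endothelial, 0.26 for mast cell and basophil, 0.18 for stem and progenitor and 1.57 for hepatoblast genes. Few bright genes carry several of these sums. Without the 2 brightest genes, the ratio was 0.41 for the 9 platelet genes and 0.48 for all genes. It was then 0.69 for macrophage, 0.64 for erythroid, 0.75 for endothelial and 0.45 for mast cell and basophil genes. For stem and progenitor genes it was 0.39, and for hepatoblast genes 1.80. The granulocyte sum was mostly S100a8 and S100a9, without which the ratio was 0.29.

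The 9 measured hepatoblast genes were all at least 2-fold higher in KO after level adjustment, where 8.34% of all measured genes were. As deposited 3 of them were, where 1.19% of all genes were. Alb was at 136 on the KO array and 63.8 on the wild type array, and Afp at 268 on the KO array and 209 on the wild type array. Each gene was read from its brightest probe set. Other measured probe sets reached down to 0.50 for Afp and 0.62 for Apoa1, short of 2-fold, and the fold of Ahsg is a bound. In the mast cell and basophil list 3 of 7 measured genes were at least 2-fold lower and 0 higher (9.05% and 8.34% over all genes). Hdc was at 35.7 on the KO array and 190 on the wild type array. The others, Kit (-1.52) and Ms4a2 (at least 2.04-fold), were named after their values were seen. Their other probe sets, Kit at -0.64 and Ms4a2 at -0.18, were short of 2-fold. Kit is also counted in the next list. In the stem and progenitor list, against the same shares, 4 of 10 were lower and 0 higher, with Myb at 43.5 on the KO array and 381 on the wild type array and Cd34 at 11.9 on the KO array and 58.5 on the wild type array, besides Kit and Flt3 (at least 3.65-fold). In the granulocyte list, against the same shares, 3 of 11 were lower and 0 higher, with a median log2 ratio of -0.52. Its brightest genes, S100a8 (0.00) and S100a9 (0.07), were within 2-fold, while Camp (-1.62), Mpo (-1.19) and Csf3r (-1.11), named after their values were seen, were lower. In the erythroid list, against the same shares, 1 of 12 was lower and 2 higher, with a median of 0.27. Its brightest genes, Hbb-y (-0.58) and Slc4a1 (-0.17), were within 2-fold. Klf1 (1.53) and Rhag (1.06, but -0.12 as deposited) were higher and Rhd (-1.30) lower, all 3 named after their values were seen. In the endothelial list, against the same shares, 0 of 8 were lower and 1 higher, Robo4 (1.56, named after its value was seen). The median was 0.21, with Stab2 (0.14) and Egfl7 (0.29) within 2-fold, although another Egfl7 probe set was at 1.36. The part of these cell types in the ratios of platelet genes was not tested.

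**Figure D4:**
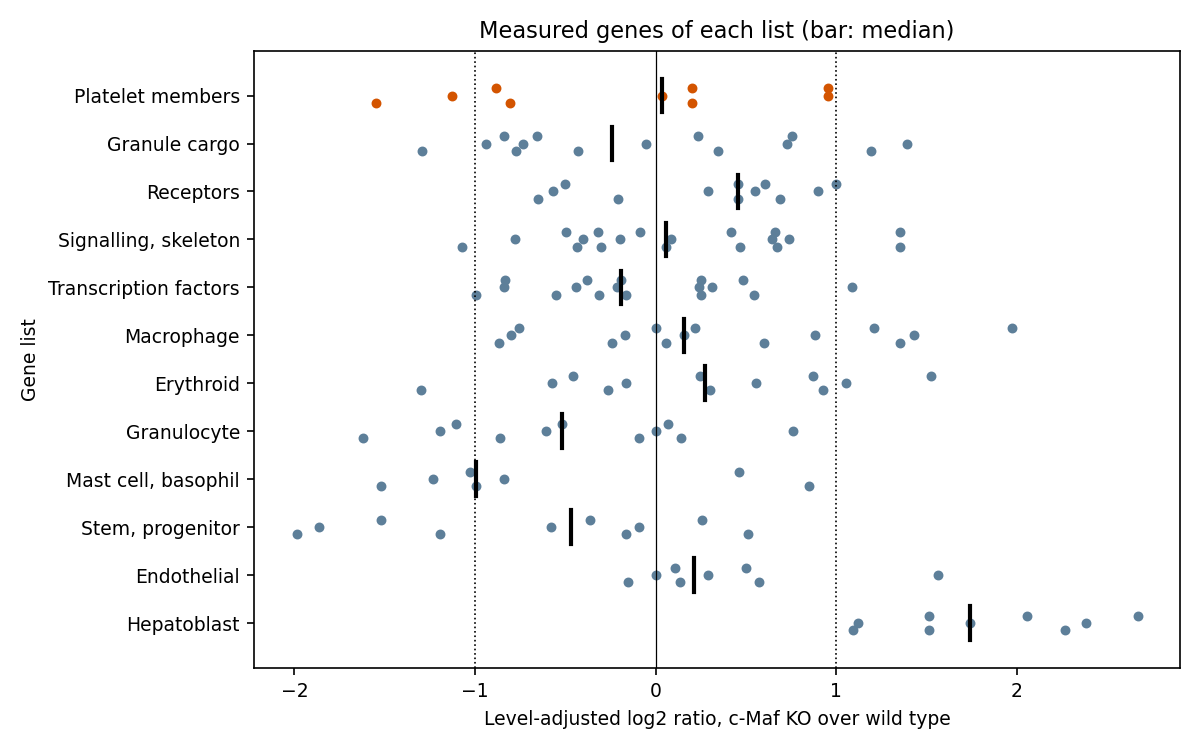
Level-adjusted log2 ratio of c-Maf KO over wild type for each measured gene (points) of the 9 platelet members (orange), 4 wider megakaryocyte lists and 7 lists of other cell types; bars are medians and dotted lines mark 2-fold. The 9 members spread from -1.55 to 0.96 around a median of 0.03, while the hepatoblast genes all lie above 1 with a median of 1.74.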

How the data were processed

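Biotin-labelled total RNA was hybridised to Affymetrix arrays, as the labels' protocols state. The authors deposited 1 linear intensity per probe set and array, from 0.0203 to 10606; their summary and scaling method is not given in the sources that were used. Of 45037 probe sets other than the 64 manufacturer's controls, 34945 had 1 gene symbol, 932 several and 9160 none, and symbols were updated through Entrez identifiers.

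Arrays were quantile normalized on the log2 scale and floored at the 50th percentile of pooled values. A gene was read from the probe set with its highest mean deposited intensity and kept if it reached the floor on at least 1 array. Thresholds were 2-fold; bright means at least 4 times the floor. Alternatives were 5 other scalings, 2 floors, a pseudocount, 3 rules for probe sets and 2 thresholds. The scaling was tested on simulated data, with changes placed only in probe sets of high wild type signal. Changes in dim genes, the bounds and the choice of probe set were not tested in this way. Named genes are the members, fixed marker genes, up to 5 bright genes of largest absolute ratio per wider list, and the 2 brightest per cell type list. Members and lists were chosen with earlier results of these data known. Python 3.11.15, numpy 2.4.6, pandas 2.3.3 and statsmodels 0.14.6 were used. The number of arrays limits the precision.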

Additional observations from a re-analysis of the deposited data

How the results depend on the processing

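The count of platelet genes at least 2-fold lower was 2. It was 4 with values as deposited, 1 with ratios centred on the median gene, 6 with the hybridisation controls, 0 with the floor at the 65th percentile, 4 at a 1.5-fold threshold and 0 at a 3-fold threshold. The count at least 2-fold higher was 0, and 2 at 1.5-fold. Their median log2 ratio of 0.03 became -0.96 as deposited and -1.25 with the hybridisation controls, where the median of all genes was -0.79 and -1.03. In the wider lists the 2 lower genes became 29 as deposited, 8 with equal medians, 5 centred, 38 with the hybridisation controls, 6 with the floor at the 25th percentile, 1 at the 65th, 4 with the floor as a pseudocount, 12 at 1.5-fold and 0 at 3-fold. The 6 higher genes became 0 as deposited, 2 with equal medians, 0 with the hybridisation controls, 3 at the 65th percentile, 15 at 1.5-fold and 0 at 3-fold. The wider median of 0.00 became -0.92 as deposited and -1.19 with the hybridisation controls. The thresholds and floors act by construction; for the scalings the cause was not tested. No paired analysis was possible because each genotype has 1 array. Signal over background limits 8 of the 9 genes, which were under 7 times the floor on both arrays.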
